A study of Homo sapiens with 4 samples.

Results

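The genes described here encode the subunits of RNA polymerases I, II and III and of Mediator. They were taken from the RefSeq gene table of GRCh38.p14 as protein-coding genes whose symbols begin with POLR1, POLR2 or POLR3, or with MED and a digit. The rule gave 63 of 20037 protein-coding genes, with 8 for polymerase I, 15 for polymerase II, 10 for polymerase III and 30 for Mediator. A peak was assigned to a gene when its summit lay inside the gene span or within 1 kb of it. The study mapped IRF3 by ChIP-seq in MM1.S, an established human multiple myeloma line grown without treatment, with 2 IRF3 ChIP replicates and an input library for each. All values therefore come from a single unstimulated line. Inputs served as the background of the peak calls and were not analysed further. The labels do not state separate cultures for the replicates, so their spread may be technical. Coordinates given for a peak are those of replicate 1 unless replicate 2 is named. Peak calling used 38568845 ChIP tags in replicate 1 and 46474586 in replicate 2, and the lists held 41880 and 41666 peaks.

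RNA polymerase I makes the large ribosomal RNA precursor, polymerase II makes messenger RNA and many non-coding RNAs, and polymerase III makes transfer RNA and other short RNAs. Mediator is a large complex that carries signals from DNA-bound activators to polymerase II. It is built of a head, a middle and a tail on the scaffold subunit MED14, and it can bind a kinase module. IRF3 is known as an activator of interferon and antiviral genes after nucleic-acid sensing. These subunits are not textbook IRF3 targets, and most cells express them.

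The promoter windows below are shown because they belong to the extremes of binding and to the members that hold an IRF-like sequence. Each is 300 bases of the RefSeq promoter table of GRCh38.p14, 250 before the annotated start site and 50 from it onward, written 5′ to 3′ on the strand of the gene. Capitals mark 3 sets of letters searched on both strands, GAAA and GAAA with any 2 bases between them (the core of IRF sites, here called the IRF letters), CCGGAAG (ETS factors) and GGGCGG (SP factors). POLR2A had the strongest peak of all members and MED11 the highest fold enrichment in replicate 1 among Mediator genes with a window in the table. POLR3A, POLR1B (the downstream of its 2 windows) and MED17 were the members with the IRF letters, and MED24 was the member without a peak in replicate 2.
POLR2A (chr17:7484116-7484415, plus strand): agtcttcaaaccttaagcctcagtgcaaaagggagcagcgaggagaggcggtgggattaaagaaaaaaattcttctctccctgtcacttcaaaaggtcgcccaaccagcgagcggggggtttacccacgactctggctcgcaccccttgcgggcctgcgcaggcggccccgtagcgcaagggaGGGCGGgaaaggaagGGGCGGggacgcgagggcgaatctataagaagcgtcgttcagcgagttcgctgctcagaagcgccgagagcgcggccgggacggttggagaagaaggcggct
MED11 (chr17:4731178-4731477, plus strand): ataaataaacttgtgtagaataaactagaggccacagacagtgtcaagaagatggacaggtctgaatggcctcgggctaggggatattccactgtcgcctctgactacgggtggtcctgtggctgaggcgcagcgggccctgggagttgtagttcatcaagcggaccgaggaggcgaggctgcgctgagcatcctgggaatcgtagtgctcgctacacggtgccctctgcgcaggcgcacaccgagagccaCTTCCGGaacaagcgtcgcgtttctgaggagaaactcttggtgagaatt
POLR3A (chr10:78029466-78029765, minus strand): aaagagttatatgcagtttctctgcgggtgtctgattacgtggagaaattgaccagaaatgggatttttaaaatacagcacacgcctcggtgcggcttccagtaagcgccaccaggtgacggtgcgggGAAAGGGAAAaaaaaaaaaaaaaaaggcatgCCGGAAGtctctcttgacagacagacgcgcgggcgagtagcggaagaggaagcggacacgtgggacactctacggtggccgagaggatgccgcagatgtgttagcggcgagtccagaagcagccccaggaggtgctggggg
POLR1B (chr2:112542215-112542514, plus strand): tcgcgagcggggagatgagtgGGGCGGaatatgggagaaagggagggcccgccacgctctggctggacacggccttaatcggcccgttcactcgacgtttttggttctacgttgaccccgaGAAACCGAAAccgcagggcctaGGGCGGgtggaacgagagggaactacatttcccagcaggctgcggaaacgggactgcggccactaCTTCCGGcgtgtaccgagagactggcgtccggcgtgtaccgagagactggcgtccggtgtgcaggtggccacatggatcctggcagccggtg
MED17 (chr11:93784032-93784331, plus strand): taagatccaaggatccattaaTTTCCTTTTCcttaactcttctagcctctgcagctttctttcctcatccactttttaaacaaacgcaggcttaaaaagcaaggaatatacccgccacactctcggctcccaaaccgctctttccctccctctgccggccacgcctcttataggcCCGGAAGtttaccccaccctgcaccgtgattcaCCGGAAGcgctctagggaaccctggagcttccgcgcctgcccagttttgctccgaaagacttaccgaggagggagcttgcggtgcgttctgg
MED24 (chr17:40054359-40054658, minus strand): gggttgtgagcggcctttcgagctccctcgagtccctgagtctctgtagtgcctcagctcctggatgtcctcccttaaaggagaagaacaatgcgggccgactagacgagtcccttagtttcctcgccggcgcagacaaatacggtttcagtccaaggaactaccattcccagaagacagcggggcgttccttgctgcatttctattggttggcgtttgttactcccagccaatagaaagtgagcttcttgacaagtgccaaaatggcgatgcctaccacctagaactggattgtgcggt

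IRF3 peaks were present at nearly every one of these genes. A peak was found in both replicates at 62 of 63 members (98.4%, exact 95% interval 91.5 to 99.96%), against 62.6% of all protein-coding genes. By replicate, 63 members had a peak in replicate 1 and 62 in replicate 2, against 64.4% and 67.0% of all protein-coding genes. A single peak in each replicate was seen at 41 members (65.1%), against 26.0% of all protein-coding genes. Both counts rest on the peak calls of the authors, and the interval covers counting error only. In each of the 62 genes a peak also lay within 1 kb of the start site in both replicates, against 51.5% of all protein-coding genes. The start site was read from the promoter table for 46 members, and either end of the gene span was taken for the other 17. All protein-coding genes include silent ones, and expression was not analysed here. Long genes held a peak in both replicates more often. The share of all protein-coding genes was 39.7% under 10 kb, 60.5% from 10 to 30 kb, 75.0% from 30 to 100 kb and 84.5% over 100 kb. All 23 members under 10 kb had a peak in both replicates.

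Members stood out less in strength than in presence. Fold enrichment is the ratio of ChIP signal to local input background that the authors deposited for each peak. Its median at the strongest peak of a member was 6.04 in replicate 1 and 9.15 in replicate 2. Over all 12540 protein-coding genes with a peak in both replicates, the medians were 5.73 and 8.14. Each value was also placed within its own list, as the percent of peaks in the list at or below it. The median percentile was 81.5 in replicate 1 and 86.9 in replicate 2 for members, against 78.6 and 83.4 for all genes with peaks. A fold enrichment of at least 5 in both replicates was reached by 43 of 63 members (68.3%), against 36.9% of all protein-coding genes. Among genes with a peak in both replicates, these were 69.4% of members and 59.0% of all protein-coding genes. The strongest 10% of the list in both replicates held the peaks of 12 members (19.0%), against 12.8% of all protein-coding genes. Among genes with a peak in both replicates, the shares were 19.4% of members and 20.4% of all protein-coding genes. These are descriptions of 2 libraries, and no test was made over the members.

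**Figure D1:**
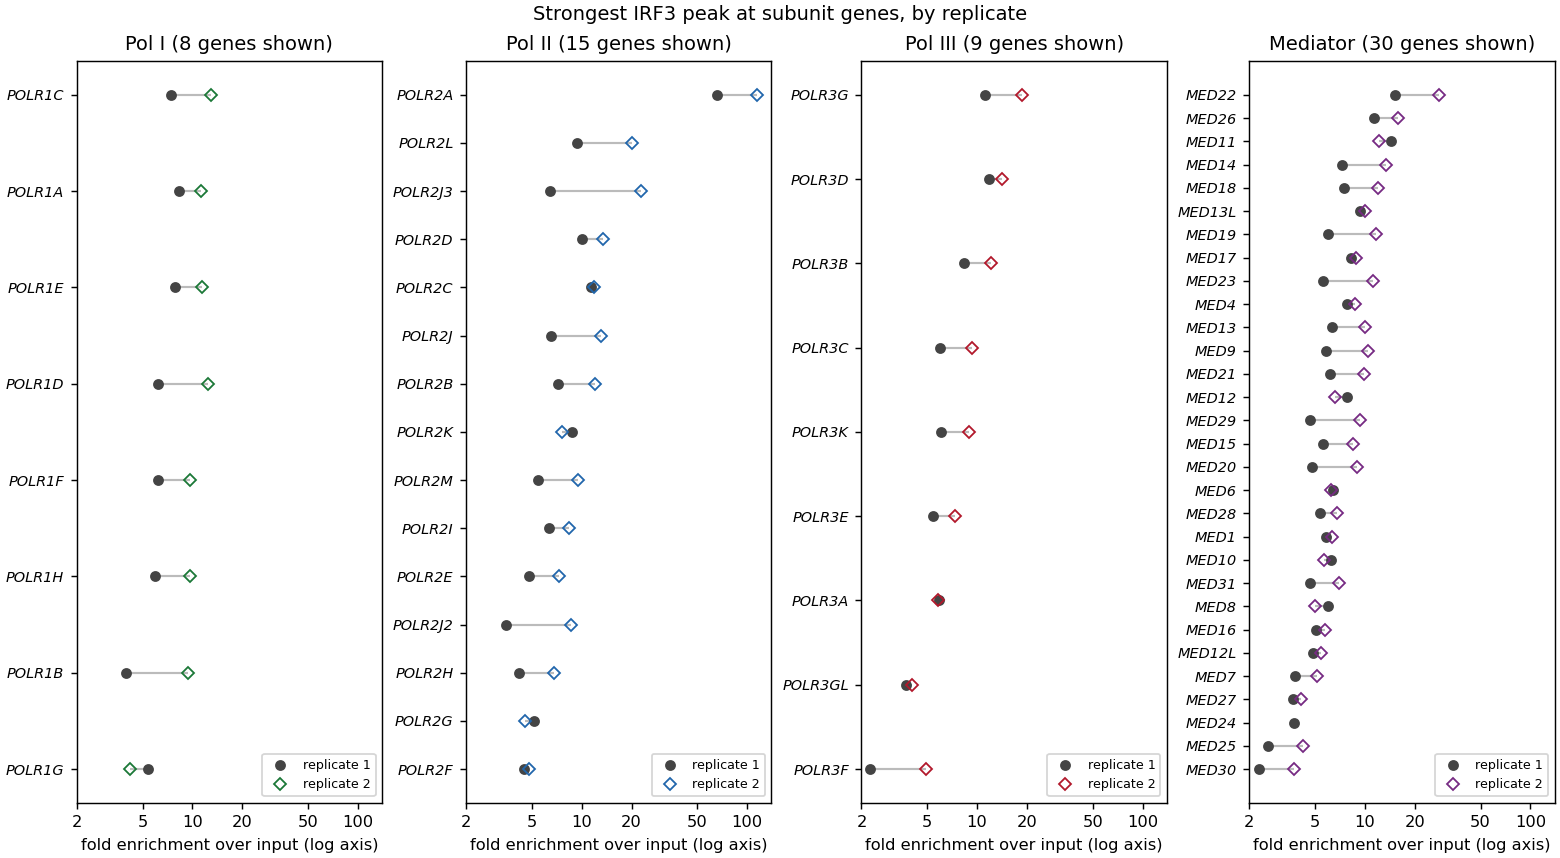
Fold enrichment over input of the strongest IRF3 peak at 62 of the 63 subunit genes on a log axis, with replicate 1 as filled circles, replicate 2 as open diamonds and a grey line joining them. POLR2A stands apart at 66.0 and 115, and MED24 has a point in replicate 1 alone.

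The 4 complexes differed little. All 8 polymerase I genes, all 15 polymerase II genes and all 10 polymerase III genes had a peak at the start site in both replicates, as did 29 of 30 Mediator genes. Median fold enrichment in replicate 1 was 6.19 for polymerase I, 6.46 for polymerase II, 5.91 for polymerase III and 5.94 for Mediator. In replicate 2 it was 10.5 for polymerase I, 9.48 for polymerase II, 8.13 for polymerase III and 8.72 for Mediator. Polymerase II had the highest median in replicate 1 and polymerase I in replicate 2, and the ranges of all 4 complexes overlapped in both. The quartiles for polymerase III in replicate 2 were 5.13 and 11.5, a span wider than any gap between the medians. Median gene length was 27.8 kb for polymerase I, 6.88 kb for polymerase II and 19.5 kb for both polymerase III and Mediator.

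POLR2A, which encodes the catalytic subunit of polymerase II with its long C-terminal repeat domain, had the strongest peak of all members by a wide margin. Its fold enrichment was 66.0 in replicate 1 and 115 in replicate 2, which was 4.33 and 4.09 times that of the next member, MED22. The summit lay 134 bp downstream of the start site in replicate 1 (chr17:7483255-7485214) and 115 bp downstream in replicate 2 (chr17:7483070-7485171). The pileup, a count of fragments stacked at the summit, was 2160 and 1625. The peak was 1960 bp long in replicate 1 and 2102 bp in replicate 2, longer than 98.3% and 97.3% of the peaks in those lists. By the worse of its 2 percentiles POLR2A ranked first of 12540 genes, tied with ZBTB4, whose span with its margin takes in the same peak. Its promoter window, printed above, holds GGGCGG at 2 places and no IRF letters.

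Other subunits particular to polymerase II ranged from near the top of the members to near the bottom. Ranked by the worse of the 2 percentiles, POLR2D was 7th and POLR2C 10th of the members, while POLR2G was 53rd and POLR2J2 59th. POLR2B, which forms the active centre with POLR2A, had 7.16 in replicate 1 and 11.97 in replicate 2. That peak lay 979 and 961 bp upstream of the POLR2B start and nearer to an end of NOA1. POLR2C and POLR2J, which form the assembly heterodimer, had 11.4 and 11.8, and 6.53 and 13.1. For the stalk, POLR2D had 10.0 and 13.4 (chr2:127857777-127858426) and POLR2G had 5.13 and 4.54. POLR2I, whose product aids transcript fidelity, had 6.34 and 8.32 at a peak nearer to TBCB. POLR2M, which encodes the polymerase-associated protein Gdown1, had 5.46 and 9.48. POLR2J2 and POLR2J3 are near-identical copies of POLR2J, so reads may be placed on the wrong copy. POLR2J3 had 6.46 in replicate 1 and 22.7 in replicate 2 (chr7:102572235-102572856), and POLR2J2 had 3.50 and 8.57 (chr7:102671343-102671709), the widest replicate ratios among polymerase II genes.

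The subunits common to all 3 polymerases ranged widely. POLR2L had 9.29 in replicate 1 and 20.2 in replicate 2 (chr11:842188-842829), and POLR2K had 8.69 and 7.59 at a peak nearer to FBXO43. The others were lower, with POLR2E at 4.80 and 7.29, POLR2F at 4.45 and 4.78 and POLR2H at 4.19 and 6.80. At POLR2H, replicate 1 had 3 peaks within 1 kb of a start site, where replicate 2 had a single peak of 2901 bp, so the lists cut the same stretch differently. POLR1C and POLR1D, whose products form the assembly pair of polymerases I and III, had 7.41 and 13.0 (chr6:43516655-43517386), and 6.22 and 12.5. Without these 7 shared genes the medians were 6.07 and 9.73 for polymerase I and 6.49 and 11.9 for polymerase II.

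At their strongest peaks, polymerase I genes ranged from 3.96 to 8.32 in replicate 1 and from 4.18 to 13.0 in replicate 2. The quartiles were 5.83 and 7.53 in replicate 1, and 9.63 and 11.7 in replicate 2. POLR1A, the catalytic subunit, had 7.55 in replicate 1 and 11.3 in replicate 2 at its start site. POLR1E, which pairs with POLR1G in a module resembling the factor TFIIF, had 7.90 and 11.5 (chr9:37485468-37486328). POLR1G itself had 5.38 and 4.18, the lowest polymerase I value in replicate 2. The stalk gene POLR1F had 6.17 and 9.72, and POLR1H, which encodes the RNA cleavage subunit, had 5.98 and 9.74. POLR1B, the partner of POLR1A in the active centre, had 3.96 in replicate 1 and 9.37 in replicate 2 (chr2:112541590-112542821). Its summit moved with the replicate, 171 bp upstream of the nearest start site in replicate 1 and 210 bp downstream in replicate 2, inside single peaks of 1232 and 1539 bp that took in both start sites.

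Polymerase III genes included both strong and weak peaks. POLR3D, a subunit of the initiation and termination module, had 11.8 in replicate 1 and 14.1 in replicate 2 (chr8:22244635-22245678). Its module partner POLR3E had 5.41 and 7.36. POLR3G had 11.2 and 18.8 (chr5:90474256-90475112), but that summit lay 696 and 716 bp from the gene end and nearer to MBLAC2. Its paralogue POLR3GL, which takes the same place in the complex, had 3.71 and 4.03. The POLR3GL summit, though nearer to its own start, also lay within 1 kb of a start or end of ANKRD34A in both replicates. The difference between the paralogues therefore rests on peaks that each shares with a neighbour. Of the catalytic pair, POLR3A had 5.89 and 5.77 and POLR3B had 8.28 and 12.2 (chr12:106357540-106358530). POLR3C, which joins POLR3F and POLR3G or POLR3GL in the initiation trimer, had 5.94 and 9.37. POLR3F had 2.26 in replicate 1, at the 3.94th percentile of that list and the lowest of all members there, and 4.92 in replicate 2. POLR3K, whose product cleaves RNA, had 6.08 and 8.89.

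In Mediator, the head genes held the strongest peak. MED22 had 15.2 in replicate 1 and 28.1 in replicate 2 (chr9:133347540-133348635), at a peak nearer to the ribosomal protein gene RPL7A. MED11 had 14.4 and 12.2 (chr17:4731277-4731904) with no other protein-coding start within 1 kb. MED17, the central head subunit, had 8.24 and 8.86, and MED18 had 7.43 and 11.9. MED19 had 5.94 and 11.6, MED20 had 4.76 and 8.94, MED6 had 6.42 and 6.20 and MED8 had 6.01 and 4.999. The median over the 8 head genes was 6.92 and 10.3.

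Middle genes had a median of 5.998 in replicate 1, close to the 6.04 of all members. In replicate 2 their median was 7.83, below the 9.15 of all members. MED26, whose product recruits elongation factors, was the strongest, with 11.3 and 13.7 at its start site. MED1, the main contact of nuclear receptors, had 5.85 and 6.28, and MED4 had 7.77 and 8.72. MED7, MED10, MED21 and MED31, also of the middle, had 3.77 to 6.24 in replicate 1 and 5.14 to 9.86 in replicate 2. MED9 had 5.79 and 10.4. MED14, the scaffold, had 7.24 and 13.4.

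The tail and the subunits between tail and head had lower values. The tail gene MED25, a contact of viral and ETS activators, had 2.601 in replicate 1 and 4.22 in replicate 2. MED23, a contact of the activator ELK1, had 5.59 and 11.2, while MED15 had 5.599 and 8.42 and MED16 had 5.03 and 5.76. The tail median was 5.31 and 7.09 over the 4 genes with a peak in both replicates. MED27, MED28, MED29 and MED30 had a median of 4.16 and 5.47, with MED30 the lowest at 2.28 and 3.73. MED30 had the lowest value of all members in replicate 2. MED29 reached 4.66 and 9.37 at a peak it shares with PAF1, a gene of elongation.

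MED24, a tail gene, was the exception in presence. Its peak in replicate 1 had a fold enrichment of 3.72 and a −log10 q of 15.8, was 386 bp long and lay 41 bp downstream of the start site (chr17:40054171-40054556). In replicate 2 the nearest summit was 8.74 kb from that start, with a fold enrichment of 3.81. The peak in replicate 1 was at the 45.5th percentile of its list. Peaks weaker than this in replicate 1 were found again in replicate 2 at other members, among them POLR3F and MED30.

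The kinase module genes had peaks in both replicates. MED12 had 7.73 in replicate 1 and 6.56 in replicate 2, MED13 had 6.29 and 10.0, and MED13L had 9.31 and 9.96. MED12L had 2.47 and 4.41 at its start, the weakest start-site value of the module. The partners that complete the module are not named MED, and they also had peaks at their starts. At the start, the kinase gene CDK8 had 4.95 in replicate 1 and 8.63 in replicate 2, its paralogue CDK19 had 7.38 and 14.3, and the cyclin gene CCNC had 5.45 and 10.1.

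**Figure D2:**
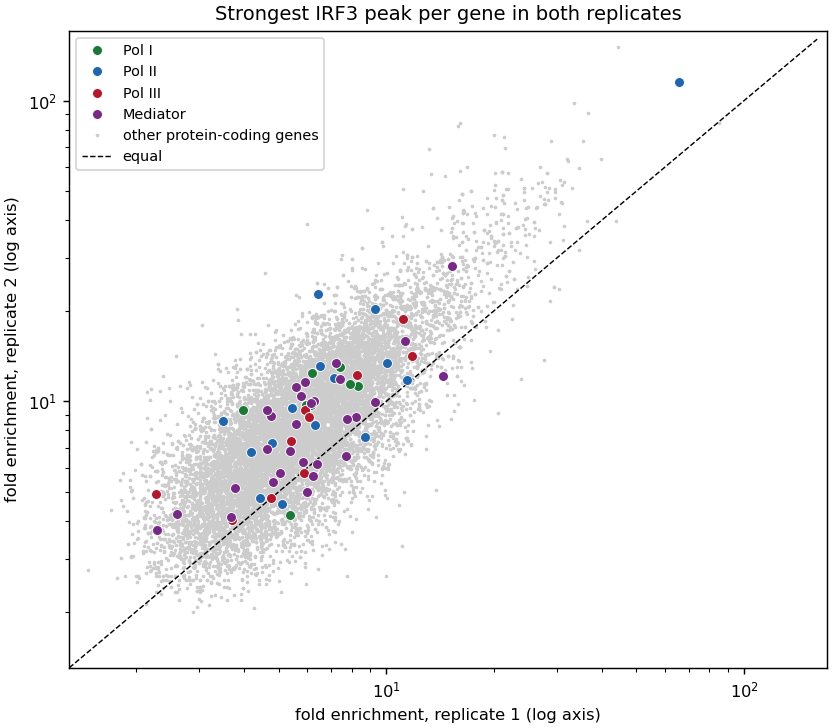
Fold enrichment of the strongest IRF3 peak per gene in replicate 1 (x, log axis) and replicate 2 (y, log axis), for members by complex and for other protein-coding genes with a peak in both. POLR2A lies apart from the other members at the upper right, and 53 of 62 members lie above the dashed line of equality. Other genes reach 85.1 in replicate 1 and 151 in replicate 2, and ZBTB4 shares the POLR2A peak.

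Values at members were related between the replicates. Fold enrichment was higher in replicate 2 at 53 of 62 members (85.5%) and at 84.6% of all protein-coding genes with a peak in both, with median log2 ratios of 0.57 and 0.52. Across the 62 members the rank correlation between replicates was 0.755 (Spearman), against 0.733 across all 12540 genes. Genes are not independent replicates, and the libraries share a cell line and peak caller. The strongest peaks of the 2 replicates overlapped at 59 members, and their summits lay a median of 25.5 bp apart, against 46 bp for all genes. Replicate 2 was lower at 9 members, which were POLR1G, POLR2G, POLR2K, POLR3A, MED6, MED8, MED10, MED11 and MED12.

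The summits sat just downstream of the start site. Among members with a start site in the table and the strongest peak within 1 kb of it, 33 of 43 summits lay downstream in replicate 1 (76.7%) and 36 of 43 in replicate 2 (83.7%). The shares over all protein-coding genes were 66.4% and 69.8%. The median offset of members was 80 bp downstream in replicate 1 (quartiles 32 and 116) and 101 bp in replicate 2 (68 and 127), against 64 and 87 bp for all protein-coding genes. In polymerase II, 9 of 10 genes had the summit from 0 to 200 bp downstream in both replicates, with the exception of POLR2B. The shares in this window were 76.7% and 81.4% for all members, and 59.6% and 61.6% for all protein-coding genes. Polymerase III had 6 of 7 genes there in replicate 1 and 7 of 7 in replicate 2. Polymerase I had 4 of 6 and 3 of 7, and Mediator had 14 of 20 and 16 of 19. The position of a summit is the peak caller's estimate, and annotated start sites need not be those used in MM1.S cells.

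**Figure D3:**
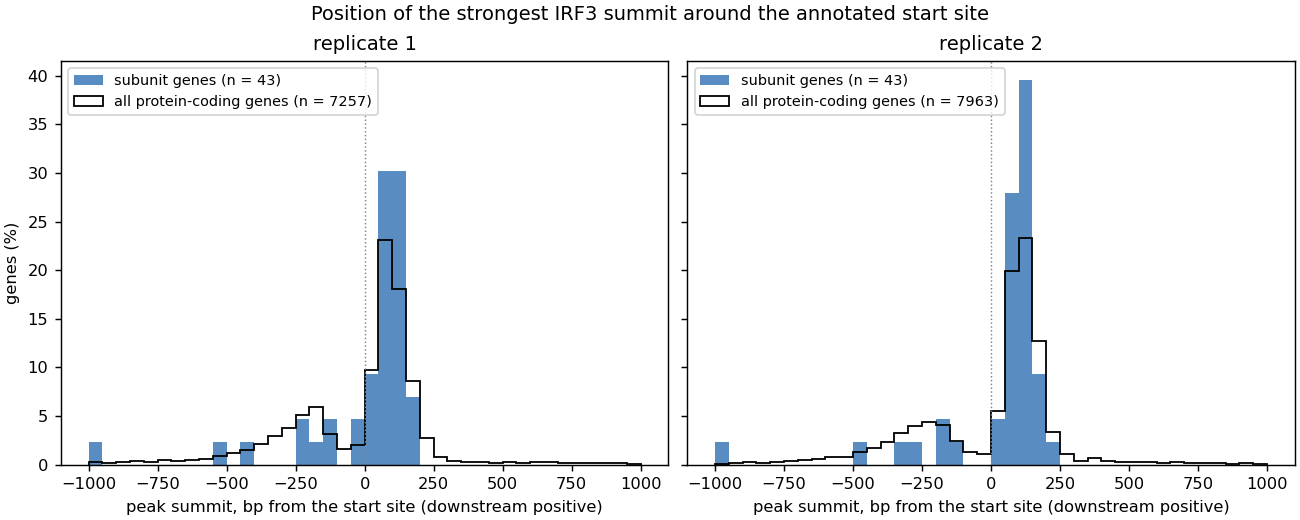
Distance of the strongest IRF3 summit from the annotated start site in bp (x, downstream positive) against the percent of genes (y), for subunit genes (blue bars) and all protein-coding genes (black line), by replicate. Member summits gather just downstream of the start, with medians of 80 and 101 bp, and a smaller group lies upstream.

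Some members share their start-site peak with a neighbour. The counts below were not made over all protein-coding genes, so whether sharing is more common at members was not tested. At 23 of 63 members the strongest summit of at least 1 replicate lay within 1 kb of a start or end of another protein-coding gene. At 10 members the strongest summit was nearer to another gene than to the start of the member in at least 1 replicate, and at 6 in both. Those 6 were POLR2B, POLR2I, POLR2K, POLR3G and MED22, and MED12L through internal peaks. For MED20 this held in replicate 1 alone, beside BYSL, and for MED26 in replicate 2 through its internal peak. For POLR1A and POLR1D it held in replicate 2 alone, beside PTCD3 and LNX2. In replicate 1 both genes also had a start-site peak within 1 kb of that neighbour, but a different peak was the strongest. Leaving out peaks nearer to another gene left 54 members with a start-site peak in both replicates. POLR1C lay beside YIPF3, POLR1G beside PPP1R13L, POLR3K beside SNRNP25 and MED19 beside TMX2, and in these the summit was nearer to the member.

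Peaks away from the start were weaker and gathered in a few genes. Of the 111 member peaks in replicate 1, 42 lay over 1 kb from a start site or gene end, and of the 93 in replicate 2, 29 did. Of these, 27 in replicate 1 and 26 in replicate 2 overlapped a peak of the other replicate. Their median fold enrichment was 3.32 and 3.77, against 5.94 and 8.92 for peaks at starts. MED12L, MED13L, MED26 and POLR1A held 27 of the 42 and 22 of the 29. MED12L and MED13L are the longest of these genes, at 351 and 319 kb. How far gene length goes with such peaks was not tested. MED26 spans 53.3 kb, while MED27 at 220 kb and POLR2F at 88.3 kb had a single peak in each replicate. The share of such peaks over all protein-coding genes was not counted.

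The strongest of these internal peaks was in MED26. It was 5275 bp long in replicate 1 and 5315 bp in replicate 2 (chr19:16583902-16589216), longer than 99.9% of peaks in either list, and lay 43.6 kb downstream of the start. Its fold enrichment was 9.74 and 15.9, so in replicate 2 it exceeded the start-site peak. POLR1A had a comparable peak 69.3 kb downstream (chr2:86035763-86037849), with 8.32 and 11.2, against 7.55 and 11.3 at its start. A further 5 internal POLR1A peaks appeared in both replicates. MED13L had an internal peak 82.6 kb downstream of its start with 8.15 and 7.35. MED12L, at 351 kb the longest member, had 12 peaks in replicate 1 and 10 in replicate 2, the strongest at 4.83 and 5.39. That of replicate 2 lay within 1 kb of an end of GPR171, a gene inside MED12L.

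**Figure D4:**
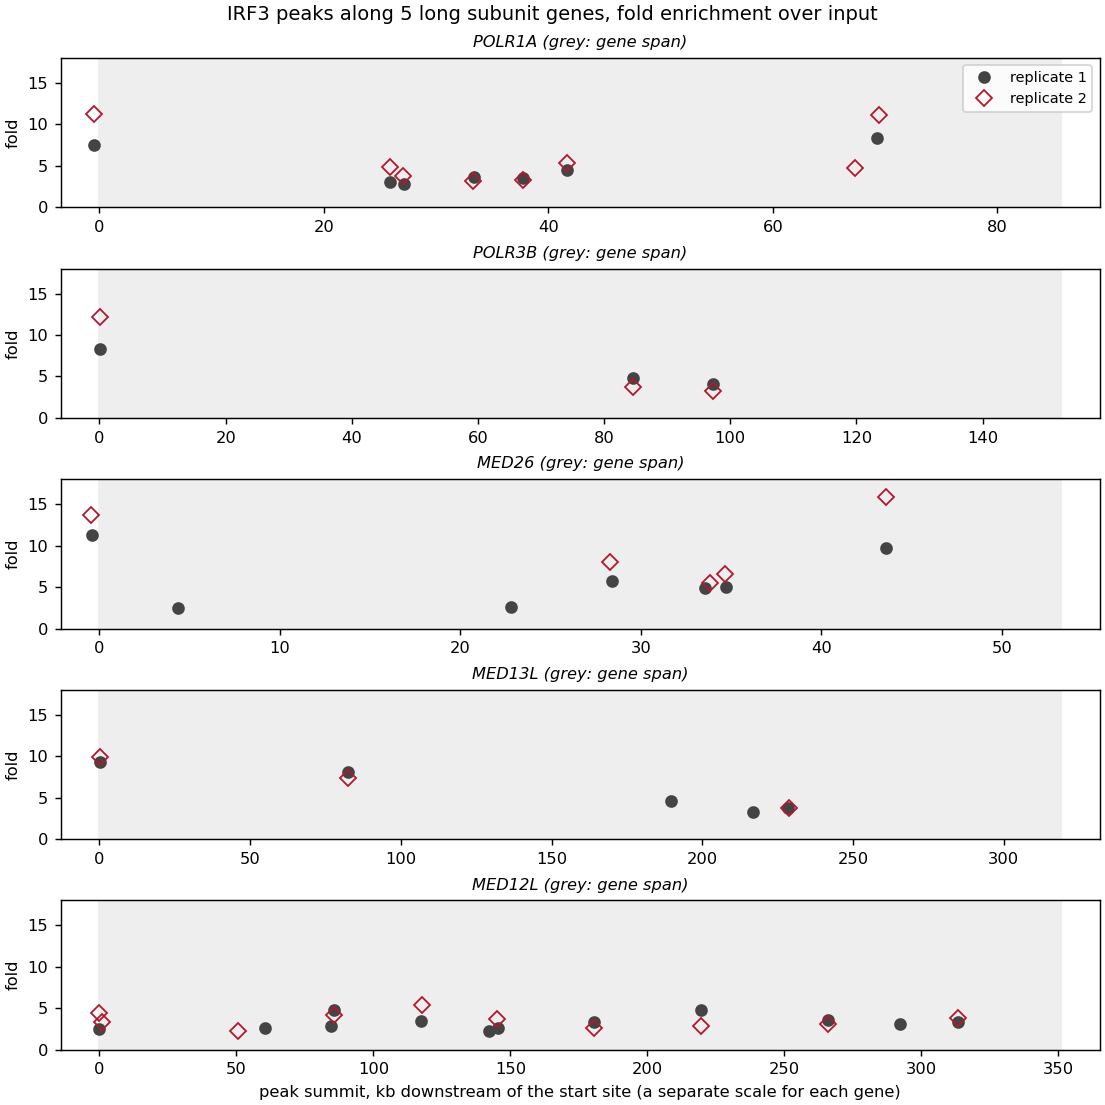
IRF3 peaks along 5 long subunit genes, with the distance of the summit from the nearest start site in kb (x) and fold enrichment over input (y), in replicate 1 (filled circles) and replicate 2 (open diamonds). MED26, POLR1A and MED13L each have an internal peak of at least 7.35 in both replicates far from the start, and MED12L has only peaks of 5.39 or less.

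Few promoters, of members or of all protein-coding genes, held IRF-like letters. The IRF letters were found in the windows of 3 of 46 members (6.52%), against 4.16% of the 15842 protein-coding genes in the table. These were POLR1B, POLR3A and MED17, with letters starting 129, 122 and 229 bases before the start site, as shown above. Their fold enrichments were 3.96 to 8.24 in replicate 1 and 5.77 to 9.37 in replicate 2, on both sides of the member median in each. The ETS letters CCGGAAG were in 16 members (34.8%), against 16.5% of all genes and 39.0% of 82 windowed genes of other transcription machinery (described below). Those 16 had a median fold enrichment of 5.74 in replicate 1 (3.50 to 14.4) and 9.37 in replicate 2 (4.78 to 13.4), and the 29 other members with a window and a peak in both replicates had medians of 5.94 and 8.89. The palindrome of NRF1 was in 4 members (8.70%, POLR2F, POLR2H, POLR3B and MED18), against 1.99% of all genes and 8.54% of those machinery genes. GGGCGG was in 65.2% and CCAAT (NF-Y) in 30.4% of members, against 64.3% and 42.1% of all genes. CACGTG (E-box) was in 10.9% of both. TGACGTCA, bound by CREB and ATF factors, was in 4.35% of members, against 2.998% of all genes. TATAAA, the letters of a promoter element of polymerase II, was in 6.52% of members, against 12.4% of all genes. Those member matches, on either strand, began 185 to 250 bases before a start site. A match is a description of letters and not a binding site, no test was made, and the windows do not reach the summits further downstream.

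The median member window held 24 CpG and 59.7% G and C, against 21.5 CpG and 62.3% over all 15842 windowed protein-coding genes. Windows of protein-coding genes with a start-site peak in both replicates held 26 CpG and 64.9% G and C, and those without held 10 CpG and 58.0%. The lowest member count, as the mean over the windows of a gene, was 14 CpG, above the median of 10 for genes without such a peak. By G and C, the member median lay nearer to genes without such a peak, and the lowest member value was 44.7%. How far CpG content goes with the presence of a peak at members was not tested.

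The rest of the transcription machinery held peaks about as often as the subunits did. Of 93 genes on a list of initiation, pausing, elongation and assembly factors, 92 had a start-site peak in both replicates (98.9%), against 51.5% of all protein-coding genes. Their median fold enrichment was 6.08 in replicate 1 and 8.96 in replicate 2, close to the 6.04 and 9.15 of the subunits. The strongest were TAF12 (36.5 and 39.7), GTF2A1 (19.2 and 41.9), TAF4 (22.6 and 29.0), HEXIM1 (15.7 and 24.9) and TAF1D (15.1 and 27.1). TAF12 and TAF4 encode partners in the polymerase II factor TFIID, GTF2A1 a subunit of TFIIA, HEXIM1 an inhibitor of pause release and TAF1D a polymerase I factor. The TAF12 peak lay over 5 kb from the start, where TAF12 had 8.002 and 13.4. None of them reached POLR2A. The exception was GTF2H2, a TFIIH gene with near-identical copies on chromosome 5, which had no peak in either replicate. POLRMT, the mitochondrial polymerase gene, had 2.82 and 2.73.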

How the data were processed

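Peak lists of 2 IRF3 ChIP libraries from MM1.S cells were analysed, each called by the authors with MACS2 2.1.2 against its own input at a q-value below 0.05, keeping all duplicate tags, per the file headers. The submitters' processing notes name GRCh38, deepTools 3.3.1, BWA 0.7.15, SAMtools 1.2, Picard 2.6.0 and MACS2 2.1.1 without roles. The deposited fold enrichment is a ratio of ChIP pileup to local background at the summit. The deposited pileup is a signal. The deposited −log10 p and −log10 q had damaged column names and were told apart by order and values.

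Gene spans, start sites and promoter sequences came from RefSeq GRCh38.p14 tables, which gave promoter windows for 46 of 63 members. Assignment of peaks, percentiles and medians used Python 3.11.15, numpy 2.4.6 and pandas 2.3.3. Exact binomial (Clopper-Pearson) intervals at the 95% level used scipy 1.17.1, and figures used matplotlib 3.10.9. The assignment was tested on simulated data. A gene without a window was given either end of its span in place of a start site. No test across members was made, since they are not replicates.

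All members entered the counts and medians, but 1 is not reported here by name or value. Of the others, those described in full were the strongest 3 of each complex by the worse of 2 percentiles, members without a peak, those with most peaks and those with the widest replicate ratios. The members and lists were chosen with earlier results of these data known. Alternatives were other margins, end windows, thresholds, overlap rules and leaving out a replicate.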

Additional observations from a re-analysis of the deposited data

How the results depend on the processing

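The counts of members, in all and by complex, stayed within 1.5 times their value under all 84 alternatives run on them. Of these, a wider margin or end window, any overlap in place of the summit and leaving out a replicate could not lower a count. With a peak in both replicates at 62 of 63 members, those settings say nothing about stability. The median fold enrichment, as the mean of the 2 replicate medians, moved by less than the spread between replicates in the 10 alternatives that took the peak at the start or left out peaks nearer to another gene. That spread is a loose measure, since replicate 2 was higher at 53 of 62 members. Taking the peak at the start left these medians unchanged. Leaving out a replicate leaves the median of the other one, 6.04 to 9.15 for all members, which says nothing about stability. Members with a peak in both replicates numbered 62 with a margin of 5 kb, with any overlap in place of the summit and with peaks overlapping by at least 1 bp, and 49 with no margin, since summits just upstream of the span then drop out. They numbered 61 at a −log10 q of at least 5, 56 when peaks had to overlap by at least 50% of each, and 43 when both folds had to reach 5. Start-site peaks in both replicates were found at 58 members within 500 bp, 62 within 5 kb and 54 without peaks nearer to another gene. Leaving out a replicate gave 62 and 63 members, and MED24 made the difference. The order of complexes by the mean of the 2 replicate medians was the same for fold enrichment and for percentile. No paired analysis was possible because no test compared groups, and each input entered only through the peak calls of its own replicate. Depth limits weak peaks, and a gene without a peak may hold binding below the cutoff.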
